A study of Mus musculus with 6 samples.

Results

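Spi1, Irf8, Gfi1, Klf4, Zeb2, Runx1, Myb and Ikzf1 encode 8 transcription factors that act as stem and progenitor cells of the bone marrow become granulocytes, monocytes and dendritic cells. They were taken by name from 19937 genes on the array, and each of the 8 was read by 1 probe set annotated to that symbol alone. The study asked how the transcriptome differs in pre-granulocyte-macrophage progenitors (PreGMs) that lack Cebpa. Its product, C/EBPα, is required for granulocyte-macrophage progenitors to form.

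The samples were 6 arrays of PreGMs from female C57BL/6 mice, 3 with the genotype Cebpa flox/flox and 3 with Cebpa flox/flox;Mx1Cre. The groups are called flox/flox and Mx1Cre here. All mice carried the floxed alleles and all had received pIC (polyinosinic-polycytidylic acid), an interferon inducer, 18 days before the marrow was taken. The Mx1 promoter that drives Cre responds to interferon and is not restricted to blood cells. The mice's age is not given in the sources used here. PreGMs were sorted as Kit-positive cells negative for lineage antigens, Sca1, CD150, CD41, FcγRII and endoglin. All values are log2 expression on the RMA scale, on which 1 unit is a doubling, and a difference is the Mx1Cre mean minus the flox/flox mean.

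PU.1, the ETS-family product of Spi1, is needed for monocytes, granulocytes and B cells. IRF8 binds DNA largely together with PU.1, at joined ETS and IRF half-sites, and is needed for monocytes and dendritic cells, whereas GFI1 is a repressor needed for granulocytes. KLF4 acts in monocyte differentiation and ZEB2 in monocyte and dendritic cell development. RUNX1, MYB and Ikaros (Ikzf1) act earlier, RUNX1 and MYB in stem and progenitor cells and Ikaros in multipotent and lymphoid progenitors.

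Cebpa itself ran against the genotype labels. It read 6.93, 6.71 and 6.85 in flox/flox replicates 1, 2 and 3 and 8.71, 9.31 and 8.98 in the arrays labelled Mx1Cre, a difference of 2.17 ± 0.14 (SE, limma adjusted p = 2.65e-05). The position of its probes relative to the deleted part of the gene was not used here. Whether the labels were exchanged was not tested. Each direction given here follows the labels as deposited and would turn if the groups' labels were exchanged. Across genes, arrays of one label correlated at 0.992 to 0.995, and arrays of different labels at 0.984 to 0.990. Kit was measured at 10.46 ± 0.090 in flox/flox and 10.61 ± 0.084 in Mx1Cre (SD, n = 3 each), above the upper quartile of gene levels (8.07). Slamf1 (CD150) averaged 5.46 and 5.29, below the lower quartile (5.63), and Eng (endoglin) 7.37 and 7.31. Itga2b (CD41) averaged 7.95 and 7.63, with a difference of -0.33 (limma adjusted p = 0.108). The other measured sort gate antigens, Fcgr3 and Fcgr2b (FcγRII), differed by -1.04 and 0.43 (limma adjusted p 0.00970 and 0.0410).

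Irf8 and Gfi1 favour the monocyte and the granulocyte fate respectively and their differences between the groups were of unequal size, so the 250 bases upstream of their RefSeq start sites are shown before their values. Capitals mark matches, on either strand, to short letter patterns of C/EBP (TTNNGNAA), ETS (AGGAAG), IRF (GAAA and GAAA parted by any 2 letters) and GFI (AAATCA) factors. The Irf8 window lies at chr8:120736108-120736357 on the plus strand and the Gfi1 window at chr5:107725806-107726055 on the minus strand of GRCm38.p6. Each has a further annotated start that is not shown.
Irf8: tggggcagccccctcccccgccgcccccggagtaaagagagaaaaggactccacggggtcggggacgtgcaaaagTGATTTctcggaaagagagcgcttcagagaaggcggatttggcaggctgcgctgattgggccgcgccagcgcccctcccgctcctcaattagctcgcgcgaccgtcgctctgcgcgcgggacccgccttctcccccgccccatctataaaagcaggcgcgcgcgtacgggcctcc
Gfi1: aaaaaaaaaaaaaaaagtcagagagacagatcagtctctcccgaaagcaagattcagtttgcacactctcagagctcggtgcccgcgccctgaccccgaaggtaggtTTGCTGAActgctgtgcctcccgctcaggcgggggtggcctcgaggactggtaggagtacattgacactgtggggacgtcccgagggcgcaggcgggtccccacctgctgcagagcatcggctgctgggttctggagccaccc

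The Irf8 window held 1 match to the GFI pattern, at -175 to -170 from the start site on the opposite strand, and none to the C/EBP, ETS or IRF patterns. The Gfi1 window held 1 match to the C/EBP pattern, at -143 to -136 on the opposite strand, and none to the other three. At the starts not shown, the Gfi1 window held an ETS match (-108 to -103) and no C/EBP match. The Irf8 window there held a GFI match (-226 to -221). Over 32536 distinct windows of the same length, 12.3% held the GFI pattern, 36.8% the C/EBP pattern, 29.6% the ETS pattern and 2.98% the IRF pattern. Promoter entries were found for 7 of the 8 genes, Spi1 having none. A match is a run of letters, not a shown binding site.

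Of the 8 transcription factor genes only Irf8 passed the test, at a limma p adjusted over all genes under 0.05. It was higher in Mx1Cre. Of all genes tested, 4.91% passed, with 2.63% higher and 2.28% lower. In 3 of the 8, Irf8, Spi1 and Zeb2, every Mx1Cre array lay above every flox/flox array, while 21.6% of all genes had groups without overlap in either direction. By point estimate 7 of the 8 were higher in Mx1Cre and Myb lower. The median difference of the 8 was 0.22, that of all genes -0.01.

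**Figure D1:**
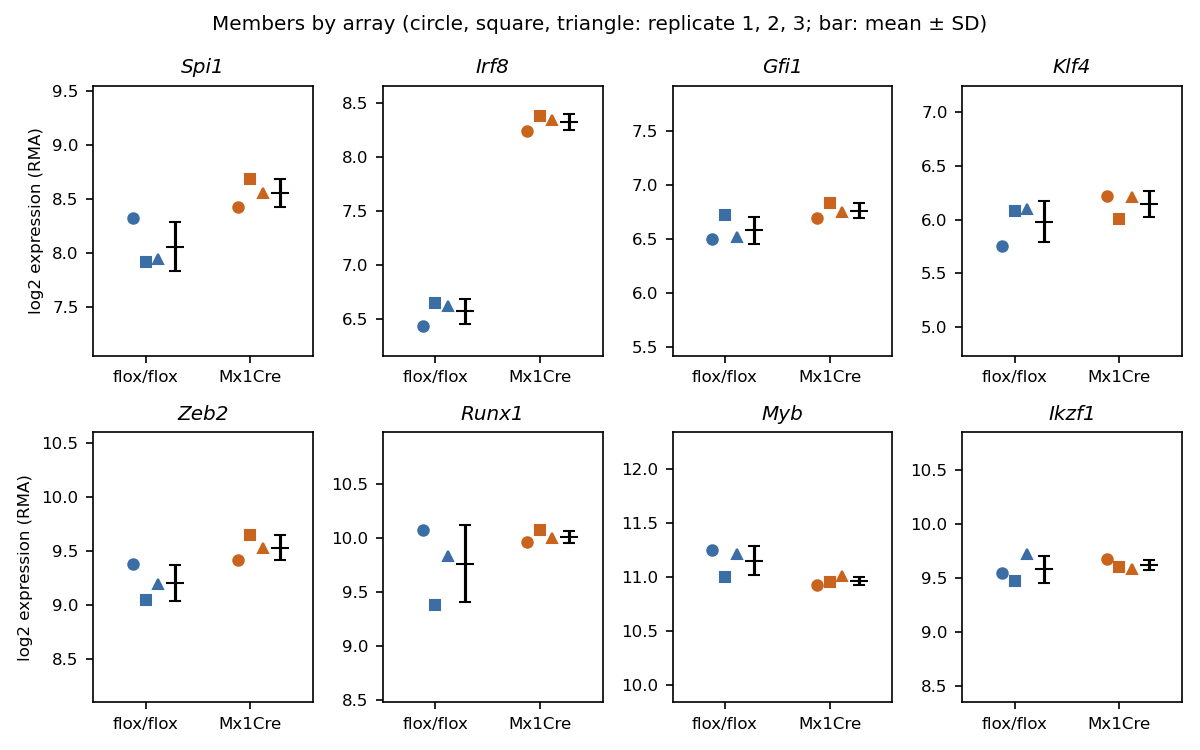
Log2 expression of the 8 genes, 1 point per array, with the mean and SD of each group of 3 beside the points; every panel spans 2.5 log2 units. The Irf8 groups lie 1.75 units apart, Spi1 and Zeb2 separate by a narrow gap, and the groups of the other 5 genes overlap.

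Irf8 read 6.44, 6.66 and 6.63 in flox/flox replicates 1, 2 and 3, and 8.24, 8.39 and 8.35 in Mx1Cre replicates 1, 2 and 3. The highest flox/flox array lay well below the lowest Mx1Cre array. The spread within a group was 0.22 for flox/flox and 0.15 for Mx1Cre. The means of 6.57 ± 0.12 and 8.33 ± 0.076 (SD, n = 3 each) differed by 1.75 ± 0.095 (SE, 95% interval 1.54 to 1.96), or 3.37-fold, with a limma adjusted p of 7.6e-06. Its unadjusted p ranked 11 among the 19937 genes. Over all alternatives the adjusted p lay between 1.93e-06 and 0.00242. In an exact two-sided permutation test over the arrays p was 0.1, the smallest that 3 against 3 can give. As these are bulk samples, more Irf8 per cell and more cells that express Irf8 cannot be told apart.

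Set against each of the other 7 within the same arrays, Irf8 was relatively higher in Mx1Cre in every case. The log2 ratio of Irf8 to Gfi1 was higher by 1.57 in Mx1Cre, and that of Irf8 to Spi1 by 1.26. The smallest change was that against Spi1 and the largest, 1.94, that against Myb. None of the 7 ratios overlapped between the groups, and each had an exact permutation p of 0.1. All 7 use the same Irf8 values and are not separate results. Irf8 differed by 1.75 and none of the other 7 by more than 0.50, so the separation largely restates the Irf8 difference. How often the ratio of Irf8 to any other gene separates the groups was not tested.

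Spi1 read 8.32, 7.92 and 7.95 in flox/flox and 8.43, 8.69 and 8.56 in Mx1Cre. The lowest Mx1Cre array lay just above flox/flox replicate 1, which stood above the other 2 of its group. The difference was 0.50 ± 0.12 (SE, 95% interval 0.22 to 0.77), or 1.41-fold, and the limma adjusted p of 0.0502 lay just above the threshold. Without flox/flox replicate 1 the difference was 0.63 and passed (adjusted p = 0.0166). Without any other array it did not pass, with differences of 0.42 to 0.56. Over all alternatives the adjusted p ran from 0.0166 to 0.213.

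Zeb2 read 9.38, 9.05 and 9.20 in flox/flox and 9.42, 9.65 and 9.53 in Mx1Cre. As with Spi1, flox/flox replicate 1 was the highest of its group and came close to the lowest Mx1Cre array. The difference of 0.32 ± 0.11 (SE, 95% interval 0.08 to 0.57) did not pass (limma adjusted p = 0.149, 0.0703 to 0.368 over the alternatives). Klf4 read 5.76, 6.08 and 6.10 in flox/flox and 6.22, 6.00 and 6.21 in Mx1Cre. Its groups overlapped, with a difference of 0.16 and a 95% interval of -0.09 to 0.42 (limma adjusted p = 0.582), and the difference was 0.05 without flox/flox replicate 1. All of its values lay below the median level over genes of 6.64, where RMA tends to understate folds. The flox/flox means of Irf8 (6.57) and Gfi1 (6.58) also lay below that level.

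Gfi1 read 6.50, 6.72 and 6.52 in flox/flox and 6.70, 6.84 and 6.75 in Mx1Cre. Flox/flox replicate 2 lay inside the Mx1Cre range, and the other 2 flox/flox arrays lay below it. The difference was 0.18 with a 95% interval of -0.03 to 0.39, which contains 0 and a rise of up to 1.31-fold (limma adjusted p = 0.410). Gfi1 thus had an interval entirely below that of Irf8, whose lower end was 1.54.

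Runx1 read 10.07, 9.37 and 9.83 in flox/flox and 9.96, 10.07 and 10.00 in Mx1Cre. The flox/flox arrays spanned 0.70 units and the Mx1Cre arrays 0.11. The difference of 0.25 (95% interval -0.09 to 0.59, limma adjusted p = 0.495) was 0.06 without flox/flox replicate 2 and 0.41 without flox/flox replicate 1. Myb read 11.25, 11.00 and 11.21 in flox/flox and 10.93, 10.95 and 11.01 in Mx1Cre. Its difference of -0.19 had a 95% interval of -0.40 to 0.02 (limma adjusted p = 0.373). Ikzf1 read 9.55, 9.47 and 9.72 in flox/flox and 9.67, 9.60 and 9.59 in Mx1Cre, so that the Mx1Cre arrays lay inside the flox/flox range. Its difference was 0.04 with a 95% interval of -0.17 to 0.25 (limma adjusted p = 0.912). For Ikzf1 the interval holds changes of at most 1.19-fold upwards.

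Within flox/flox, replicate 2 was the lowest array for 5 of the 8 genes and replicate 1 for the other 3. Within Mx1Cre, replicate 1 was the lowest for 6 of the 8 and replicate 2 the highest for 5. The lowest and the highest Mx1Cre array for Cebpa were the same ones. The range over arrays was wider in flox/flox than in Mx1Cre for 8 of the 8 genes, while the same held for 47.0% of all genes. This was not tested.

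Among other genes of the same families, those that passed in the reported fit were all lower in Mx1Cre. Of 48 measured relatives (Cbfb, the shared partner of RUNX proteins, is counted with them), 0 were higher and 4 lower in Mx1Cre by limma, against 2.63% higher and 2.28% lower of all genes. The 4 that passed were Spic, Irf7, Klf6 and Klf7. Their count dropped to 0 on leaving out flox/flox replicate 1, and to 1 on leaving out any of flox/flox replicate 3, Mx1Cre replicate 1 and Mx1Cre replicate 3. It was also 0 when all probe sets of the table were fitted together. Under some alternatives, array weights and the replicate block among them, 1 relative passed as higher. At an unadjusted p under 0.05, 4 of the 48 were higher and 10 lower, against 16.4% of all genes, 8.32% higher and 8.12% lower.

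**Figure D2:**
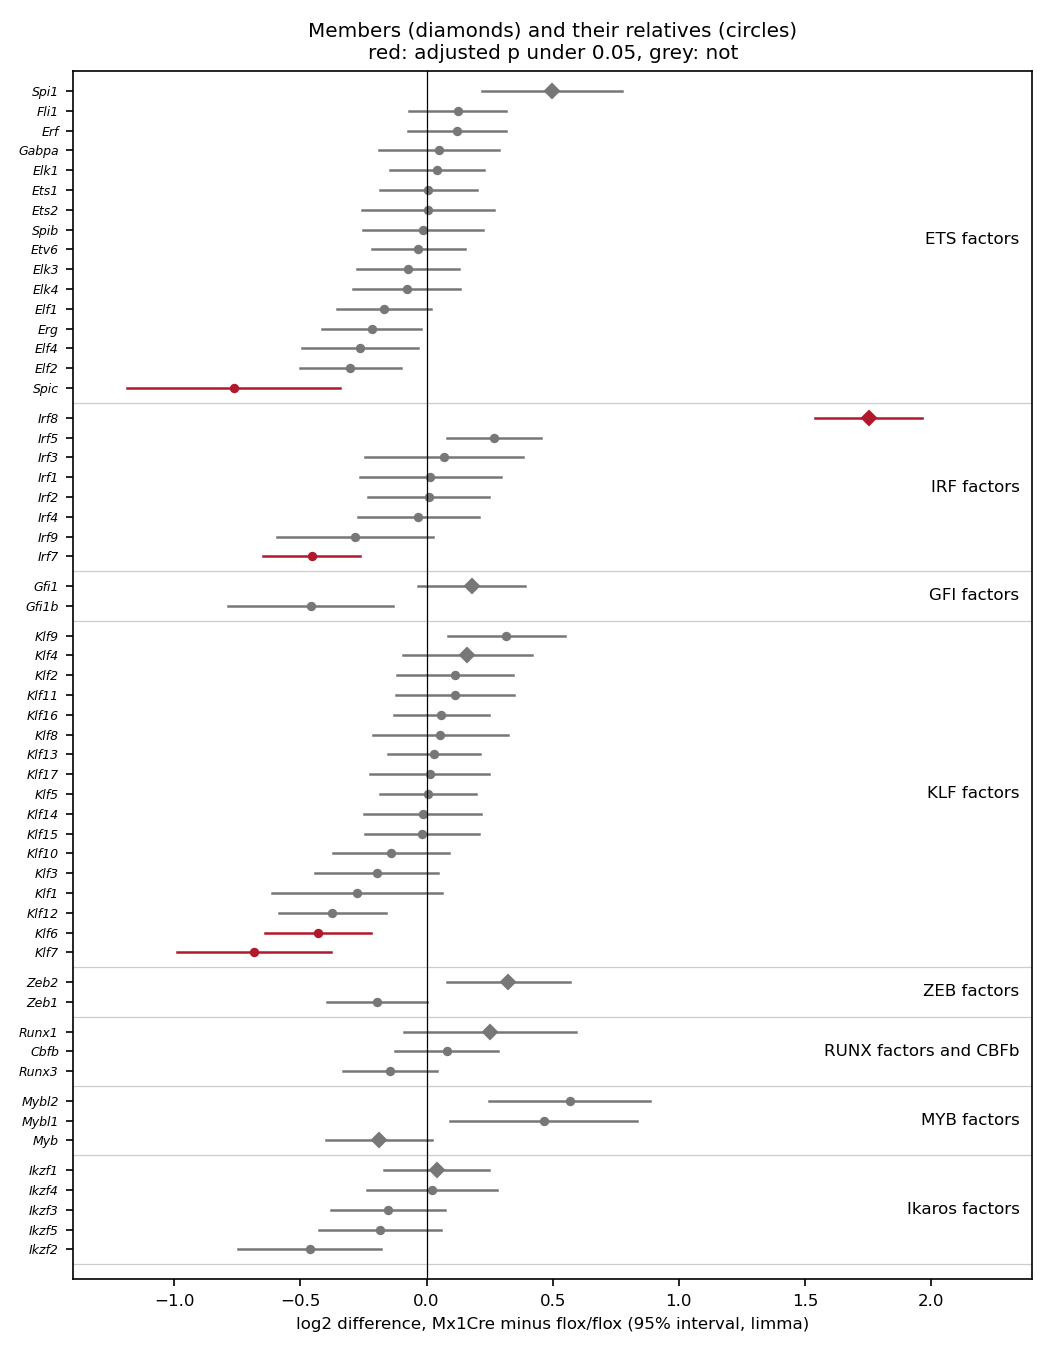
Log2 difference with its 95% interval (limma) for the 8 genes, drawn as diamonds, and their measured relatives, drawn as circles, grouped by family; red marks an adjusted p under 0.05. Irf8 at 1.75 lies apart from the 7 other IRF genes, which lie between -0.46 and 0.27.

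Among 8 measured IRF genes Irf8 was the only one higher. Irf7, an amplifier of the type I interferon response, read 6.42, 6.42 and 6.28 in flox/flox and 5.88, 5.97 and 5.91 in Mx1Cre. It fell by 0.46 ± 0.086 (SE, limma adjusted p = 0.0148, up to 0.0784 over the alternatives), and leaving out 1 array raised its adjusted p to 0.0607 (flox/flox replicate 1), 0.0501 (flox/flox replicate 2) or 0.0638 (Mx1Cre replicate 3). Irf5 and Irf9 had the largest differences among those that did not pass, at 0.27 and -0.28 (limma adjusted p 0.115 and 0.354), Irf9 standing at -0.15 without flox/flox replicate 3. Irf4, the closest relative of Irf8 and another PU.1 partner, averaged 5.07 and 5.04, below the lower quartile of gene levels, with a difference of -0.03 ± 0.11 (SE).

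Of the 16 ETS genes Spic, which encodes a PU.1 relative of red pulp macrophages, was the 1 that passed. It was dim and fell from 5.86 ± 0.41 to 5.09 ± 0.23 (SD, n = 3 each), a difference of -0.77 with a limma adjusted p of 0.0483 that ran from 0.0186 to 0.236 over the alternatives. It lost the call without flox/flox replicate 1 (-0.54) or 3 (-0.83) and without Mx1Cre replicate 1 (-0.73) or 3 (-0.67). Elf2 and Elf4 came next, at -0.30 and -0.26 (adjusted p 0.0964 and 0.228), with Elf4 at -0.11 when its probe sets were averaged, and Spib, the nearest relative of Spi1, stood at -0.02 ± 0.11 (SE).

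Of the 17 KLF genes Klf7 and Klf6 fell, by 0.68 ± 0.14 and 0.43 ± 0.094 (SE, limma adjusted p 0.0200 and 0.0286). Klf7 read 8.49, 7.95 and 8.21 in flox/flox and 7.39, 7.68 and 7.54 in Mx1Cre, with no overlap. Both lost the call without flox/flox replicate 1, 3 or Mx1Cre replicate 1, at adjusted p between 0.0588 and 0.0754, Klf6 also without flox/flox replicate 2 (0.0915) or Mx1Cre replicate 2 (0.0878), and Klf7 also without Mx1Cre replicate 3 (0.0672). Klf12 and Klf9 did not pass, at -0.37 and 0.32 (adjusted p 0.0551 and 0.139).

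The remaining families had no member that passed limma's threshold, and 2 of their genes beside Zeb2 were higher and 2 lower at an unadjusted p under 0.05, where all genes gave 8.32% and 8.12%. Gfi1b, the erythroid and megakaryocytic relative of Gfi1, had a difference of -0.46 (adjusted p = 0.128), which passed without flox/flox replicate 2 (0.0344). Zeb1 stood at -0.20, Runx3 at -0.15 and Cbfb at 0.08 (adjusted p 0.306, 0.462 and 0.782). Mybl2, the proliferation-linked relative of Myb, read 7.42, 7.75 and 7.63 in flox/flox and 8.28, 7.85 and 8.37 in Mx1Cre. Its difference of 0.57 lay just outside the threshold (adjusted p = 0.0528). It passed under 5 of the 15 alternatives, with the lowest adjusted p without Mx1Cre replicate 2 (0.0112). Mybl1 stood at 0.46 (adjusted p = 0.179), or 0.28 without flox/flox replicate 1. Ikzf2, which encodes Helios, stood at -0.46 (adjusted p = 0.0740, and 0.0407 without flox/flox replicate 2) and Ikzf5 at -0.18 (0.473), or -0.11 without flox/flox replicate 1 and -0.12 with array weights.

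None of 24 partners and co-regulators of these factors passed in limma, and 0 were higher and 2 lower at an unadjusted p under 0.05 (8.32% and 8.12% of all genes). Under 6 of the alternatives 1 of them passed as lower: both dim-gene filters, cyclic loess, array weights, the trend with robust prior and leaving out flox/flox replicate 2. The differences ran from -0.57 to 0.16 with a median of -0.05. The list holds histone deacetylases, the Ikaros-associated remodelling ATPase gene Chd4 and the GFI1 co-repressor genes Kdm1a and Rcor1.

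The known target genes of the factors included rises and falls. Of 65 measured target genes, each counted once, 18 were higher, 6 lower and 41 did not pass, against 2.63% higher and 2.28% lower of all genes. Their median difference was 0.12. The 65 include Irf8 itself, counted among the 18 higher, and Spi1, Gfi1 and Klf4, which did not pass. The target lists share genes, so their counts are not separate results, and they were drawn up from textbook knowledge with earlier results of these data known.

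Of 23 measured PU.1 targets 10 were higher in Mx1Cre and 2 lower, with a median of 0.48. Flt3, a cytokine receptor of early progenitors, read 6.70, 8.33 and 7.15 in flox/flox and 9.73, 9.51 and 9.38 in Mx1Cre. It was 4.43-fold higher (limma adjusted p = 0.00402), with flox/flox replicate 2 standing apart from the other 2. Elane, neutrophil elastase, was 4.23-fold higher, and Csf1r, the M-CSF receptor, and Ctss, cathepsin S, were each 3.67-fold higher (adjusted p 0.00181, 1.97e-05 and 0.000695). Elane and Csf1r averaged 5.93 and 5.73 in flox/flox, below the median level over genes. Il7r, which encodes a receptor chain for the lymphoid cytokine IL-7, and Fcgr3, a low-affinity IgG receptor, fell by 1.13 and 1.04 (adjusted p 0.000544 and 0.00970). The count of higher PU.1 targets was 9 to 11 without 1 array.

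Of 12 measured IRF8 targets 2 were higher and 0 lower, with 4 and 0 at an unadjusted p under 0.05 (limma; 8.32% and 8.12% of all genes) and a median of 0.12. Cybb, the catalytic subunit of the phagocyte NADPH oxidase, read 5.54, 5.07 and 5.45 in flox/flox and 6.71, 6.53 and 6.29 in Mx1Cre, a 2.22-fold difference (limma adjusted p = 0.00143). Cst3, cystatin C, was 1.56-fold higher (0.0109). Klf4, itself an IRF8 target in monocytes and among the 8, did not pass. Cybb is also counted among the PU.1 targets. Of 4 measured KLF4 targets only the chemokine receptor gene Ccr2 passed, 3.26-fold higher (0.000154).

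**Figure D3:**
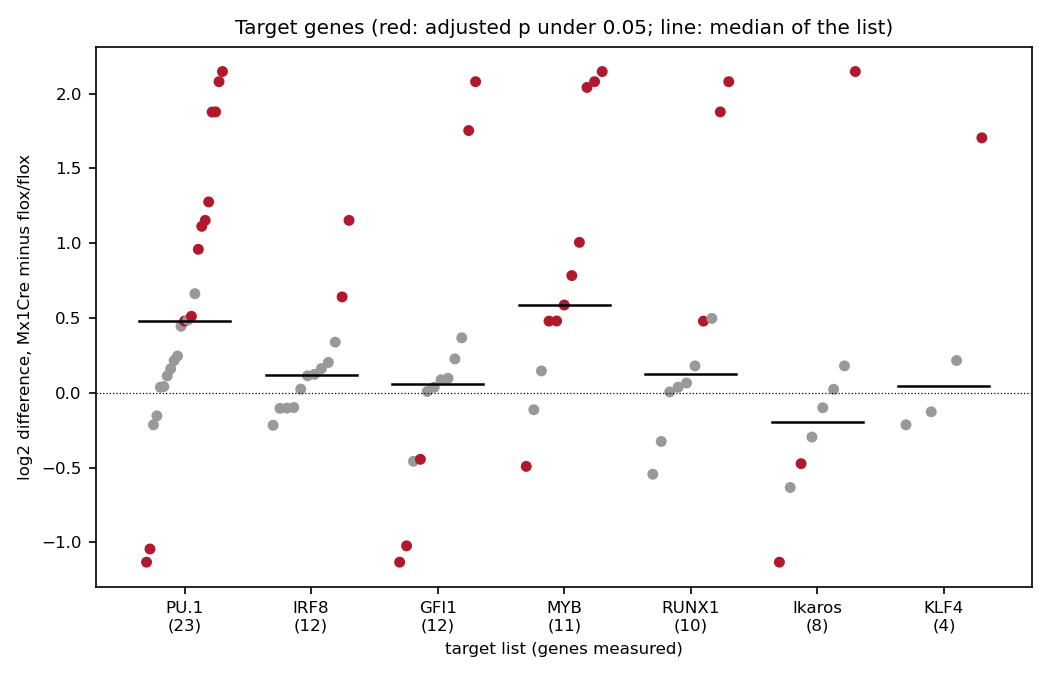
Log2 difference of each measured target gene by list, in order of size, with the list's median as a line; red marks an adjusted p under 0.05. PU.1 and MYB targets have the highest medians, 0.48 and 0.59, and the lists overlap in genes such as Flt3 and Elane.

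GFI1 represses its targets, and they went both ways. Of 12 measured, Irf8 and Elane were higher and Il7r, Id2 and Cdkn1b lower, with a median of 0.06. Id2, an inhibitor of basic helix-loop-helix factors, fell by 1.02 ± 0.23 (SE, limma adjusted p = 0.0298). Cdkn1b, the cell cycle inhibitor p27, fell by 0.45 ± 0.10 (SE, 0.0359). Id2 lost the call without any 1 of the flox/flox arrays (0.0740 to 0.0969) and Cdkn1b without any 1 of the 6 arrays (0.0593 to 0.109).

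Of 11 measured MYB targets 8 were higher and 1 lower, with a median of 0.59, while Myb itself had an interval reaching from -0.40 to 0.02. Prtn3, proteinase 3, read 6.92, 6.93 and 7.06 in flox/flox and 8.65, 9.65 and 8.75 in Mx1Cre, a 4.12-fold difference (limma adjusted p = 0.000614). Cd34, the progenitor antigen, was 2.01-fold higher (0.000692). Gata3, whose product directs lymphoid fates, fell by 0.49 (0.00991, and 0.0503 without flox/flox replicate 3). Kit did not pass. The count of higher MYB targets was 7 or 8 without 1 array and 4 when all probe sets were fitted together.

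Of 10 measured RUNX1 targets 3 were higher, Elane, Csf1r and Mpo (myeloperoxidase, 1.39-fold, limma adjusted p = 0.0103), and 0 lower, with 4 higher and 2 lower at an unadjusted p under 0.05 (8.32% and 8.12% of all genes). Spi1 and Gfi1, which are RUNX1 targets too, did not pass. Of 8 measured Ikaros targets Flt3 was higher, and Il7r and Hes1, a Notch target repressed by Ikaros, were lower. Hes1 fell by 0.47 ± 0.11 (SE, 0.0387) and lost the call without flox/flox replicate 1 or 3 or Mx1Cre replicate 2 or 3 (0.113 to 0.154).

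The genes whose pattern over the 6 arrays was most like that of Irf8 were Hpse, Csf1r and Lbp. Likeness was the root mean square distance between log2 values, each gene centred on its own mean, and was 0.077, 0.165 and 0.179. Hpse, which encodes heparanase, read 5.62, 5.94 and 5.98 in flox/flox and 7.55, 7.81 and 7.72 in Mx1Cre. Within each group it had the same lowest and highest array as Irf8 in Mx1Cre and the same lowest array in flox/flox. With 6 arrays, such a match describes these arrays only.

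Most listed monocyte and myeloid progenitor markers, and 5 of 9 granulocyte markers, were higher in Mx1Cre as Irf8 was, against 2.63% of all genes. These lists are in part the target lists again: 5 of the 8 measured monocyte and macrophage markers and 5 of the 7 myeloid progenitor markers were counted there, and 0 of the 9 granulocyte markers. Of 8 measured monocyte and macrophage markers 7 were higher in Mx1Cre and 0 lower. Their mean log2 level per array was 6.29 to 6.38 in flox/flox and 7.83 to 8.09 in Mx1Cre. Of 7 myeloid progenitor markers 6 were higher, with means of 8.70 to 8.89 against 10.1 to 10.6, and of 9 granulocyte markers 5 were higher, with means of 5.42 to 5.61 against 6.44 to 6.92. Cd14 among the monocyte markers and 4 of the granulocyte markers, Ly6g being 1 of them, did not pass. Ly6g averaged 4.54 and 4.51, below the lower quartile. Of 8 dendritic cell markers only Clec9a was higher, with list means of 5.91 to 6.11 against 6.14 to 6.28. The part of these cells in the Irf8 difference was not tested.

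**Figure D4:**
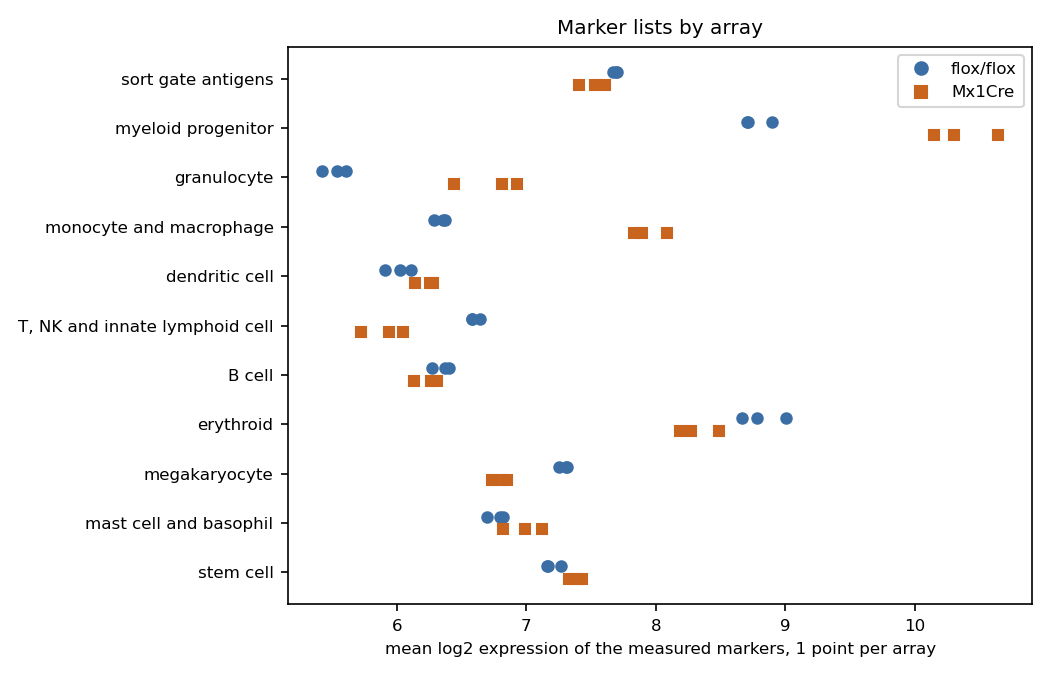
Mean log2 level of each marker list, 1 point per array, circles for flox/flox and squares for Mx1Cre. The means of the monocyte, granulocyte and myeloid progenitor lists are higher in all 3 Mx1Cre arrays. Those of the erythroid, megakaryocyte and T, NK and innate lymphoid lists are lower, where 2 of 7, 1 of 5 and 2 of 11 markers passed. Dendritic cell, stem cell, and mast cell and basophil means are also higher in all 3, by narrower gaps. Sort gate antigen means are lower, and B cell means overlap.

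Of 11 measured T, NK and innate lymphoid markers Gzmb and Trat1 were lower and 0 higher, with means of 6.58 to 6.65 against 5.73 to 6.05. Gzmb, at -4.45, and Trat1, at -2.56, carried the mean, since the median difference of the list was -0.08 and the other 9 did not pass. Of 7 erythroid markers 2 were lower, with means of 8.67 to 9.01 against 8.19 to 8.49, and of 5 megakaryocyte markers 1, with means of 7.25 to 7.31 against 6.73 to 6.85. Of 7 measured B cell markers 0 passed in limma, with 0 higher and 2 lower at an unadjusted p under 0.05 (8.32% and 8.12% of all genes). Of 8 mast cell and basophil markers 2 were higher and 2 lower, and of 7 stem cell markers 1 was higher. Of 6 measured sort gate antigens 1 was lower and 1 higher. Fcgr3, described above among the PU.1 targets, was the lower one and still passed on leaving out any 1 array (limma adjusted p 0.00226 to 0.0437), but not with all probe sets fitted together (0.110). Fcgr2b (FcγRII) was higher by 0.43 (limma adjusted p = 0.0410), a call lost without any 1 of 5 arrays (0.0503 to 0.147) and kept without Mx1Cre replicate 1. The part of any of these cell types in the differences above was not tested.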

How the data were processed

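Total RNA of sorted PreGMs was amplified with a whole-transcriptome kit and hybridised to 1 Affymetrix array per sample, per the labels' protocols. The deposited values are log2 expression per probe set, made by the authors with RMA and affy, per the submitters' processing notes. RMA corrects background, quantile normalizes and pulls dim values towards a floor. Of 34760 probe sets 21640 had 1 gene symbol, 1321 several and 11799 none here. A gene's brightest probe set on average stood for it, giving 19937 genes. Differences were tested over all genes with limma 3.58.1 in R 4.3.3 (lmFit, eBayes) and Benjamini-Hochberg adjustment at 0.05. In simulated data 158 genes passed, 4 of them falsely, against 979 in the real data, so recovery there need not equal that of the reported fit. On the simulated data the fit recovered 40.3% of changes of 0.5 log2 units, 91% of changes of 1 and 100% of changes of 2. A gene that did not pass is therefore not shown to be unchanged. With 3 arrays a group, precision is limited by their number. The design text gives 3 mice per genotype. No source used here gives the version of RMA or the chip definition. The 8 genes and all lists were chosen with earlier results of these data known. Named genes are the 8 and Cebpa, called relatives and the 2 uncalled relatives per family of largest difference, up to 4 called rises and falls per target list, the 3 genes nearest to a called one of the 8, and the sort gate antigens. Other genes (Irf4, Spib, Chd4, Kdm1a, Rcor1, Clec9a, Gzmb, Trat1, Ly6g and Cd14) were named after their values were seen. Alternatives were cyclic loess, centring each array on its median, 2 filters on dim genes, the mean of probe sets, a fit over all probe sets, a trend with robust prior, array weights, the replicate number as a block and leaving out each array. Promoter windows are from RefSeq (GRCm38.p6), without the 50 bases after the start. In those windows 9 letter patterns were counted, of which 4 are given.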

Additional observations from a re-analysis of the deposited data

How the results depend on the processing

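Irf8 kept its direction and its call under all 15 alternatives. Of the 8 genes 1 passed in the reported fit, and 2 (with Spi1) passed after cyclic loess, with either filter on dim genes, with the mean of probe sets, with the trend and robust prior and with array weights. Spi1 was then 0.49 after cyclic loess, 0.50 with the lower quartile filter, 0.50 with the median filter (which removed Klf4), 0.50 with the mean of probe sets, 0.50 with the trend and 0.53 with array weights. Leaving out 1 array gave 1 to 2 of the 8, with Spi1 at 0.42 to 0.63, Ikzf1 at -0.013 to 0.11 (below 0 without flox/flox replicate 2) and Eng at -0.11 to 0.021 (above 0 without Mx1Cre replicate 1). Over all genes 979 passed, 538 to 785 without 1 array and 244 with all 34760 probe sets in the fit. There, 13 of the 23 named genes, other than the 8 and Cebpa, that had passed no longer did. Deviations of same-numbered arrays correlated at 0.188, 0.0515 and 0.174, and those of differently numbered arrays at -0.245 to 0.124. The reported fit was unpaired because the replicate numbers are not said to pair mice, and pairing was not tested. With the replicate number as a block 1089 genes and 1 of the 8 passed, with Irf8 at 1.75 (limma adjusted p = 4.44e-05) and Spi1 at 0.50 (adjusted p = 0.0744).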
